A study of Xenopus laevis with 12 samples.

Results

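The genes described here are 54 symbols of the Hedgehog, bone morphogenetic protein (BMP) and fibroblast growth factor (FGF) pathways, read in RNA from the whole brain of Xenopus laevis tadpoles. The African clawed frog Xenopus laevis is allotetraploid, so most of its genes have a copy on a longer chromosome, marked .L, and a copy on the shorter partner chromosome, marked .S. A row of the deposited count tables belonged to the set when its symbol, without the final .L or .S, was among the 54. This gave 91 of 37018 rows, from 48 symbols, with 28 Hedgehog, 33 BMP and 30 FGF rows. The symbols bmp7, gdf11, smad5, chrd, fgf14 and etv5 matched no row and were not analysed here. Of the 91 copies, 86 had enough reads to be tested, 26 of them Hedgehog, 32 BMP and 28 FGF. The other 5 copies, dhh.S, ihh.S, bmp5.S, fgf10.S and fgf20.S, had at most 21 reads in any library and were left out of every test and of every count below.

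The 12 RNA-seq libraries formed 4 groups of 3 biological replicates. They were wild-type control brains at Nieuwkoop-Faber (NF) stage 45 and at NF 47, and brains of the same 2 stages from tadpoles that had been exposed as embryos to thioridazine and that the labels describe as having abnormal brains. Thioridazine is an antipsychotic of the phenothiazine class, known as a blocker of dopamine receptors. It was given at 90 µM from NF 14 to NF 26, while the neural tube forms and is patterned, and control embryos were held at the same temperature during that window. Brains were therefore taken at stages well after the drug had been removed. The labels give neither the number of brains in a library nor their clutches, so p-values measure the spread between these samples.

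Hedgehog proteins are secreted signals that bind the receptor Patched, which releases Smoothened to act on the Gli transcription factors. In the neural tube, Sonic hedgehog from the notochord and floor plate sets ventral cell fates, while BMPs from the roof plate act through Smad proteins and Msx factors on dorsal fates. FGFs act through receptor tyrosine kinases, and organise, among other places, the boundary of midbrain and hindbrain and the front edge of the telencephalon. All 3 pathways switch on their own inhibitors, so that ptch1 and hhip, smad6, smad7 and bambi, and the sprouty genes are commonly read as measures of pathway activity.

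Libraries held 12843954 to 18164871 counted reads, of which the 91 copies together took 0.177% to 0.212% of the reads. Both NF 45 libraries numbered 2, 1 control and 1 thioridazine, stood apart from the others on the first principal component, at 104.4 and 118.3, with the other libraries between -56.16 and 9.6. In these 2 libraries the summed skin and epithelium markers were at 303 and 277 CPM (a gene's reads scaled to libraries of one common size) against 648 to 1710 elsewhere. Summed cartilage and connective tissue markers were at 1000 and 1060 CPM against 2730 to 5310 elsewhere, and summed muscle markers at 3560 and 5050 CPM against 494 to 1900. The control NF 45 library numbered 3 also stood apart, at -67.18 on the second component. Its summed liver and gut markers were at 1760 CPM against 610 to 871 CPM in the other libraries, with rbp4.L at 246 CPM against at most 10.6 CPM. All rows of the neuronal (16), progenitor and glial (18) and brain region (13) marker lists were detected. CPM were computed on library totals scaled by edgeR's TMM method. They were not divided by transcript length, so levels are compared below between libraries and not between genes.

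After thioridazine, no copy of a Hedgehog, BMP or FGF gene was called different from control at either stage, at an edgeR adjusted p under 0.05 over all 26570 genes tested. Over all genes, the share called was 0% at NF 45 and 0% at NF 47. At an unadjusted p under 0.05, 1 of the 86 copies differed at NF 45, where 1.98% of all genes did, and 0 differed at NF 47, where 1.1% of all genes did. DESeq2 called 0 of the 86 at each stage, against 0.0339% and 0.00377% of all genes, and limma-voom called 0 at each stage, against 0% and 0%. Deviations of libraries of 1 stage with the same replicate number correlated at 0.291 to 0.845, although the labels state no pairing. The same comparisons were therefore also made within pairs of equal number. There 0 copies were called at either stage, against 0.0226% of all genes at NF 45 and 0.00376% at NF 47. Averaged over both stages within the 6 pairs, the comparison with the smallest errors, edgeR called 0 of the 86 copies, against 0.0941% of all genes. DESeq2 and limma-voom called 0 copies there, against 0.28% and 0.677%. At an unadjusted p under 0.05 edgeR had 6 copies, 4 higher and 2 lower after thioridazine, which is 6.98% of the copies tested and lies below the 9.19% of all genes. Without either library of pair 1 of NF 47 there were 2. The 25 genes called over all genes became 324 without the control NF 45 library numbered 3, 310 without its thioridazine partner, and 1 without either library of pair 3 of NF 47. Leaving out either library of pair 2 of NF 45 gave 15, of pair 1 of NF 47 at most 13 and of pair 2 of NF 47 8.

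The errors set a limit, copy by copy, on the size of difference that could be present. Within pairs this is the average over both stages, in which opposite effects would cancel. There the 95% interval of the log2 fold change lay between a 2-fold decrease and a 2-fold increase for 82 of the 86 copies. This is 95.3%, beside 92% of all genes. The interval lay inside a 1.5-fold change either way for 75 of the 86 copies, beside 74.8% of all genes. At NF 45 alone it lay within 2-fold for 73 copies (84.9%) and within 1.5-fold for 47, beside 74.1% and 45.5% of all genes. At NF 47 alone the counts were 75 (87.2%) and 49, beside 74.5% and 47.2% of all genes. The 1.5-fold values of the copies are counts out of 86, while those of all genes are percentages. The copies had smaller errors than all genes, with a median SE of 0.103 beside 0.109 within pairs and 0.189 beside 0.221 at each stage. Their median level was 14.5 CPM beside 12.8 CPM over all genes tested. The median log2 fold change within pairs was 0.03 for the Hedgehog copies, 0.05 for the BMP copies and -0.02 for the FGF copies, beside -0.004 over all genes tested.

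**Figure D1:**
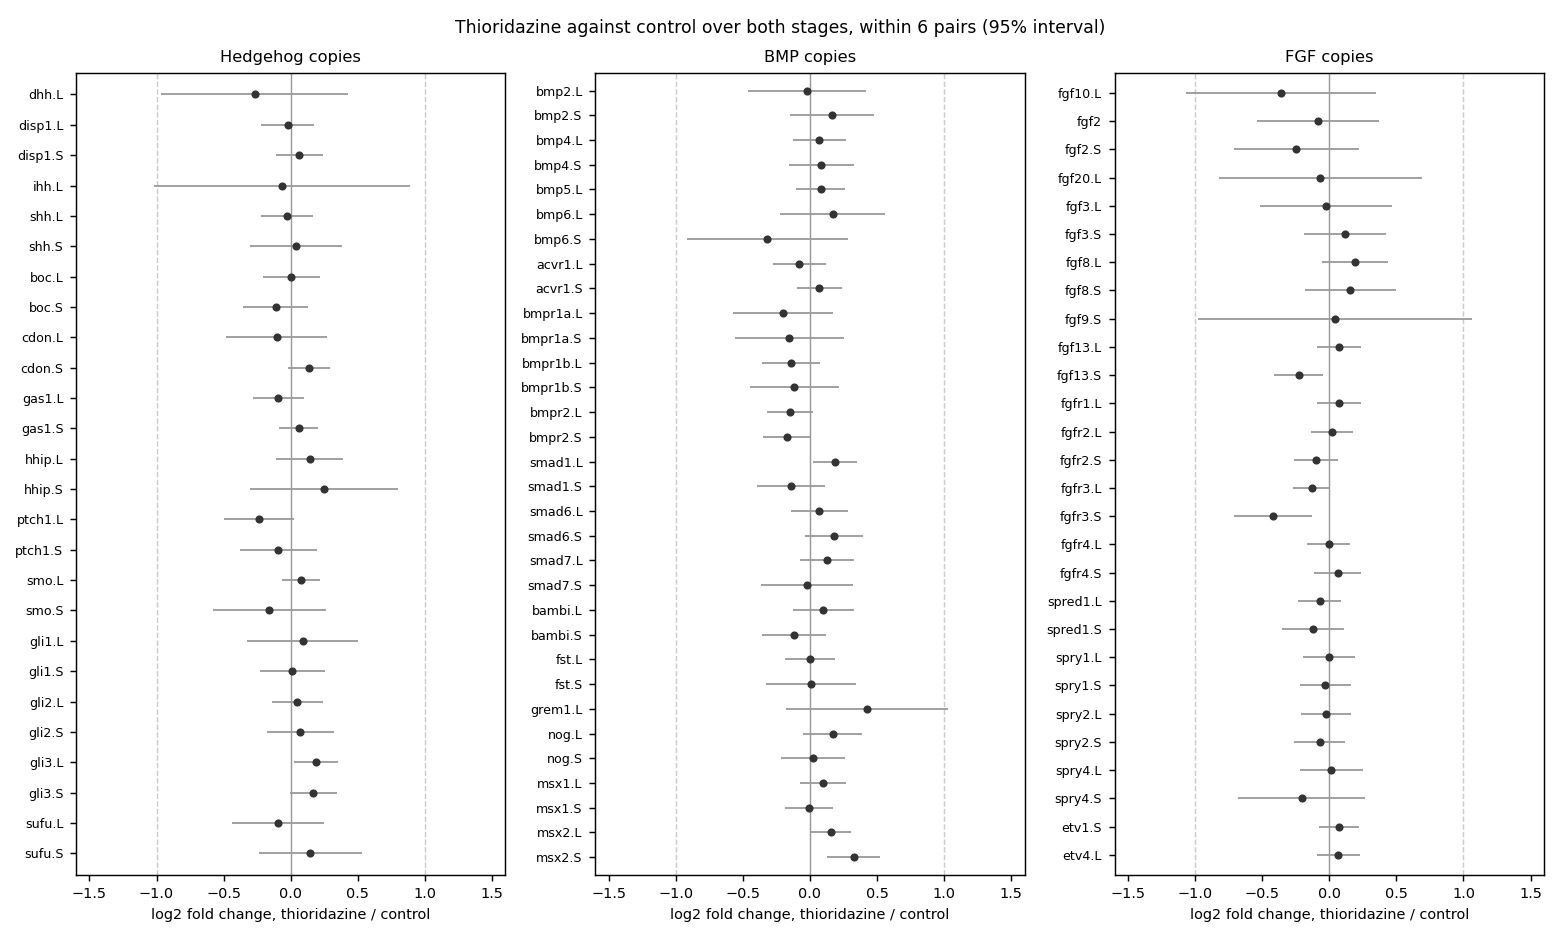
Log2 fold change of thioridazine over control for each of the 86 copies tested, averaged over both stages within 6 pairs (x axis), with 95% intervals as bars; copies are ordered by role within each pathway and dashed lines mark a 2-fold change. The points lie between -0.42 and 0.42, and the intervals of 82 copies stay within the dashed lines.

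Hedgehog ligands are made as precursors and released from the cell by Dispatched, encoded by disp1. In controls at NF 45, shh.L, the main Hedgehog ligand gene of the neural tube, was at 32.3, 30.5 and 41.1 CPM, and in the thioridazine libraries at 35.5, 41 and 36.1 CPM. At NF 47 it was at 33.9, 38.5 and 36.2 CPM in controls and at 25.1, 38.9 and 32.8 CPM after thioridazine. The groups overlapped at both stages. The other copy, shh.S, ranged from 2.31 to 6.23 CPM over the 12 libraries, also with overlap. The copies of ihh and dhh, ligands used mainly outside the brain, had few reads: ihh.L had 6 to 40 reads and dhh.L 5 to 22 reads in a library, and their values differed by more than 4-fold between libraries. Both disp1 copies varied by less than 1.5-fold over the 12 libraries.

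Among the genes that receive the signal, ptch1 is both the receptor and a direct target. In controls at NF 45, ptch1.L was at 11.2, 19.4 and 13.9 CPM, and in thioridazine libraries at 9.55, 18.1 and 9.76 CPM. At NF 47 the values were 10.8, 11.8 and 9.28 CPM in controls and 7.5, 14.4 and 7 CPM after thioridazine. It was lower after thioridazine in 5 of 6 pairs, with a log2 difference of -0.24 ± 0.119 (SE) within pairs, and was not called (edgeR adjusted p = 0.585). The exception was pair 2 of NF 47, and in both stages the library numbered 2 was the highest of its thioridazine group. The copy ptch1.S was higher in 4 of 6 pairs. The feedback inhibitor hhip.L, a decoy that binds Hedgehog proteins, was at 14.3, 16.7 and 17.2 CPM in NF 47 controls and at 17.4, 19.5 and 18.1 CPM in NF 47 thioridazine libraries, which do not overlap; at NF 45 its groups overlapped. Of the co-receptors that help cells bind Hedgehog ligands, cdon.S and gas1.S were also higher without overlap at NF 47, and cdon.S was at 26.8, 25.9 and 28.8 CPM in controls and at 29.9, 31.1 and 32.8 CPM after thioridazine. This was a log2 difference of 0.20 ± 0.13 (SE), with an edgeR adjusted p of 1. None of these 3 was separated at NF 45. Their other copies had mixed directions in pairs 1, 2 and 3 of NF 47. The log2 differences were -0.28, 0.37 and -0.48 for cdon.L, -0.23, 0.35 and -0.02 for gas1.L, and -0.1, 0.4 and 0.16 for hhip.S.

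The Gli factors carry the signal into the nucleus, where gli1 is an activator and target, gli2 mainly an activator and gli3 mainly a repressor when the signal is absent. In controls gli3.L was at 75.2, 65.8 and 54.6 CPM at NF 45 and at 64.5, 59.0 and 69.5 CPM at NF 47. After thioridazine it was at 75, 71.8 and 77.6 CPM and at 75.6, 68.1 and 72.6 CPM. Its groups overlapped at both stages, and it was 0.19 ± 0.0747 (log2, SE) higher within pairs, with 5 of 6 pairs higher and an edgeR adjusted p of 0.484. The other copy gli3.S was higher in 5 of 6 pairs, by 0.17 ± 0.0796. For gli1.S the NF 45 controls were at 18.8, 19.7 and 12 CPM and the thioridazine libraries at 12.2, 20 and 13.5 CPM, while at NF 47 the controls were at 12.2, 14.8 and 12.9 CPM and the thioridazine libraries at 11.6, 18.3 and 15.4 CPM. The highest gli1.S value in each thioridazine group was again in the library numbered 2. Of the 8 copies of gli1, gli2, gli3 and sufu, the cytoplasmic inhibitor of Gli, 7 had a fold change above 0 within pairs, with a list median of 0.08 beside -0.004 over all genes.

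**Figure D2:**
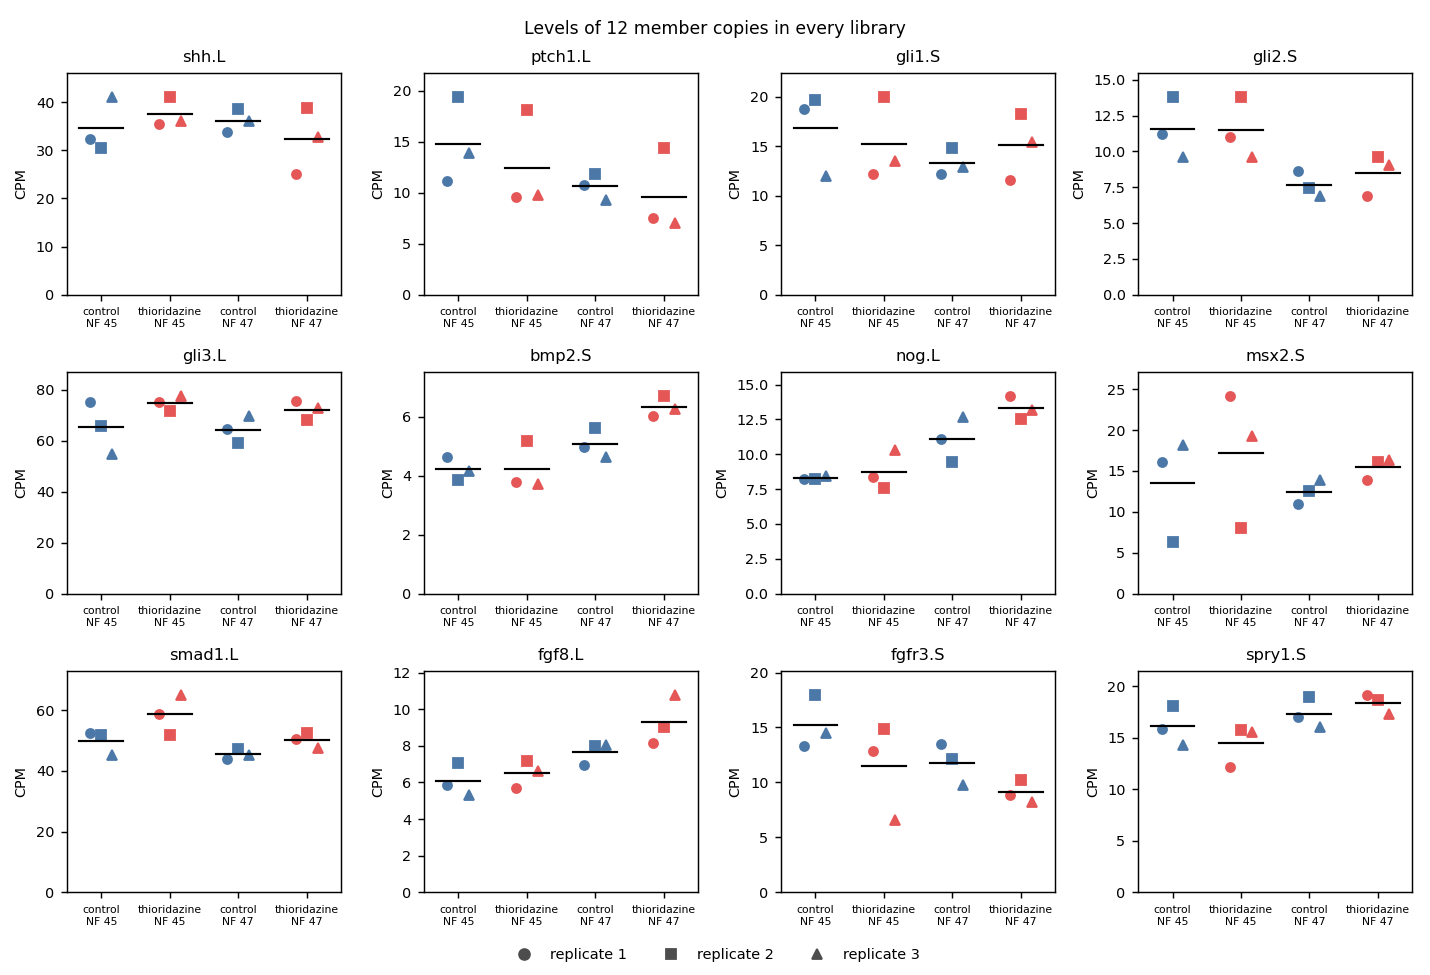
CPM of 12 copies in every library (y axis, starting at 0), by group (x axis); blue marks controls, red thioridazine, the marker shape the replicate number, and the black line the group mean of 3 libraries. Control and thioridazine libraries overlap at NF 45 in every panel, while at NF 47 bmp2.S, msx2.S, smad1.L and fgf8.L are higher in all 3 thioridazine libraries; msx2.S and ptch1.L show the NF 45 libraries numbered 2 (squares) away from the others.

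BMP ligands signal through paired type I and type II receptors. The ligand gene bmp2.S was at 4.96, 5.61 and 4.64 CPM in NF 47 controls and at 6.03, 6.71 and 6.25 CPM in NF 47 thioridazine libraries, so the groups did not overlap. At NF 45 it was at 4.63, 3.86 and 4.16 CPM in controls and at 3.79, 5.19 and 3.73 CPM after thioridazine, with overlap. The NF 47 difference was 0.32 ± 0.197 (log2, SE) and was not called (edgeR adjusted p = 1). The other copy, bmp2.L, had log2 differences of -0.73, 0.1 and -0.33 in pairs 1, 2 and 3 of NF 47. The copies of bmp4, a dorsal ligand gene, lay between 14.0 and 18.6 CPM at NF 45 and between 13.2 and 16.4 CPM at NF 47 for bmp4.L, and between 10.3 and 20.1 CPM over all libraries for bmp4.S. The 8 receptor copies (acvr1, bmpr1a, bmpr1b and bmpr2) had lower values after thioridazine for 7 within pairs, with a median of -0.15 and a range from -0.20 to 0.07. None of them was called or reached an unadjusted p of 0.05.

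Smad1 is activated by BMP receptors, while Smad6 and Smad7 are inhibitors that the pathway induces. At NF 45 smad1.L was at 52.6, 51.8 and 45.4 CPM in controls and at 58.9, 51.8 and 65.2 CPM after thioridazine. At NF 47 it was at 43.8, 47.4 and 45.2 CPM in controls and at 50.6, 52.6 and 47.6 CPM after thioridazine. Groups overlapped at NF 45 and not at NF 47, and smad1.L was higher in all 6 pairs, although the second NF 45 pair was at 51.8 CPM in both libraries as rounded. The difference was 0.19 ± 0.0749 (log2, SE) within pairs, with an edgeR adjusted p of 0.491. It was also the copy with an unadjusted p under 0.05 at NF 45, where it was 0.23 ± 0.105 higher (edgeR adjusted p = 1). With the pairing it was no longer under 0.05 there, and msx2.S, fgfr2.S and fgfr3.S were, at 0.34 ± 0.129, -0.27 ± 0.106 and -0.46 ± 0.186 (edgeR adjusted p = 0.821, 0.829 and 0.854). The copy smad1.S was lower in 5 of 6 pairs. The inhibitors smad6.L, smad6.S and smad7.S were higher in 3, 4 and 3 of 6 pairs, and smad7.L in 5. Over the 12 libraries smad6.L lay between 12.9 and 19.4 CPM and smad6.S between 13.7 and 23.8 CPM.

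Extracellular antagonists bind BMPs before they reach a receptor, and bambi is a decoy receptor. The antagonist gene nog.L was at 11.1, 9.44 and 12.7 CPM in NF 47 controls and at 14.2, 12.5 and 13.2 CPM in NF 47 thioridazine libraries. The highest control lay just above the lowest thioridazine library, the log2 difference was 0.27 ± 0.16 (SE), and nog.L had the smallest unadjusted p of the 86 copies at that stage (edgeR adjusted p = 1). The copies of bambi were below the other libraries of their group in both NF 45 libraries numbered 2, with bambi.L at 5.55 and 4.96 CPM there and between 9.86 and 13.1 CPM in the other 10 libraries. The gene grem1.L, an antagonist used in limb and other mesenchyme, was at 0.436 and 1.51 CPM in these 2 libraries, where the other 10 ranged from 1.54 to 5.77 CPM.

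The homeobox genes msx1 and msx2 are BMP targets of the dorsal neural tube, and are also active in skin and head mesenchyme. In NF 45 controls msx2.S was at 16.1, 6.30 and 18.2 CPM, and in the thioridazine libraries at 24.2, 7.98 and 19.3 CPM. In NF 47 controls it was at 10.9, 12.6 and 13.9 CPM, and after thioridazine at 13.9, 16.1 and 16.3 CPM. It was higher in all 6 pairs, with overlap of the groups at NF 45. At NF 47 the highest control and the lowest thioridazine library were nearly level, at 3.806 and 3.812 log2 CPM, so that the groups were separated by less than the printed CPM show. The difference was 0.32 ± 0.0912 (log2, SE; 95% interval 0.126 to 0.524) within pairs, and its unadjusted p was the smallest of the 86 copies (edgeR adjusted p = 0.319). Without the control library of NF 45 numbered 3 the difference was 0.40 with an edgeR adjusted p of 0.0613, and without the thioridazine library of that pair 0.40 with 0.0602. Without the thioridazine NF 47 library numbered 1 the adjusted p was 0.859, DESeq2 gave 0.753, and without the pairing the edgeR value was 1. The other copy, msx2.L, was at 30.8, 25.6 and 28.7 CPM in NF 45 controls and 35.6, 28.6 and 33.5 CPM after thioridazine, and at 25.2, 26.1 and 27.9 CPM and 26.2, 30.3 and 29.2 CPM at NF 47. It too was higher in all 6 pairs, by 0.16 ± 0.0675 (edgeR adjusted p = 0.523). The copy msx1.L, between 32.7 and 61.7 CPM, was higher in 4 of 6 pairs, and msx1.S, between 20.6 and 38.4 CPM, in 3.

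Markers of some other tissues, but not of all, were also higher after thioridazine in most or all of the same pairs. Summed cartilage and connective tissue markers were higher in the thioridazine library of all 6 pairs, from 1000 to 4310 CPM in NF 45 controls against 1060 to 5310 CPM after thioridazine, and from 2730 to 4180 CPM in NF 47 controls against 4000 to 4460 CPM after thioridazine. Of the 27 rows of that list none was at 0, and 22 of 26 tested had a fold change above 0, with 1 called. Summed leukocyte markers were also higher in all 6 pairs, with 13 of 14 tested rows above 0 and 0 called. Summed retina and pigment markers were higher in 5 of 6 pairs, with 17 of 17 rows above 0 and 2 called, and summed muscle markers in 5 of 6, with 20 of 21 rows above 0 and 0 called. Summed skin and epithelium markers were higher in 2 of 6, with 10 of 17 tested rows above 0. Liver and gut markers were also higher in 2 of 6, with 3 of 13 rows above 0, and endothelium markers in 2 of 6, with 4 of 12. Red blood cell markers were higher in 3 of 6, with 10 of 12 rows above 0. The part of these tissues in the msx2 values was not tested. In whole-brain RNA, a change in the number of cells of a type and a change in RNA per cell cannot be told apart.

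FGF ligands include fgf8, which is made at the boundary of midbrain and hindbrain and in the front of the forebrain. In NF 45 controls fgf8.L was at 5.86, 7.04 and 5.31 CPM, and in thioridazine libraries at 5.69, 7.19 and 6.62 CPM. At NF 47 it was at 6.93, 7.99 and 8.02 CPM in controls and at 8.14, 9.04 and 10.8 CPM after thioridazine, with no overlap. The NF 47 difference was 0.29 ± 0.181 (log2, SE; edgeR adjusted p = 1). The copy fgf8.S overlapped at both stages. The gene fgf13 encodes an intracellular FGF homologous factor that binds sodium channels and microtubules in neurons, and is not secreted. Its copy fgf13.S was lower in all 6 pairs, at 24.2, 18.7 and 18.8 CPM in NF 47 controls against 17.8, 18.0 and 14.5 CPM after thioridazine, with a log2 difference of -0.23 ± 0.0841 within pairs (edgeR adjusted p = 0.460). The copy fgf13.L was higher in 4 of 6 pairs.

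The receptor gene fgfr3.S was at 13.3, 18.0 and 14.5 CPM in NF 45 controls and at 12.9, 14.9 and 6.62 CPM after thioridazine. At NF 47 it was at 13.5, 12.1 and 9.78 CPM in controls and at 8.85, 10.2 and 8.22 CPM after thioridazine. It was lower in all 6 pairs although its groups overlapped at both stages, and the log2 difference ran from -1.11 in pair 3 of NF 45 to -0.05 in pair 1. The difference was -0.42 ± 0.133 (SE; 95% interval -0.707 to -0.127) within pairs, with an edgeR adjusted p of 0.393. At NF 45 alone it was -0.41 ± 0.258, and -0.13 without the thioridazine library numbered 3. The other copy fgfr3.L was lower in 5 of 6 pairs, with -0.13 ± 0.0641. All 7 receptor copies had fold changes below 0 at NF 45, where fgfr2.S was at 45.6, 35.5 and 44.5 CPM in controls and at 37.8, 29.7 and 36.8 CPM after thioridazine. At NF 47, 5 of the 7 had fold changes above 0, and the median was -0.10 at NF 45 and 0.08 at NF 47. Over all genes it was -0.004 and -0.001. The ligand copy fgf10.L had a log2 difference of -0.77 ± 0.492 at NF 45 (edgeR adjusted p = 1).

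Sprouty and Spred proteins are induced by FGF signals and dampen them, and etv4 is a transcription factor gene switched on by them. All 8 copies of spry1, spry2, spry4 and spred1 had fold changes below 0 at NF 45, from -0.25 to -0.01, with a median of -0.08, and 5 of the 8 were above 0 at NF 47. With the pairing, spry1.L was at 0.0046 at NF 45, as was the receptor copy fgfr4.S. Over all FGF copies, 21 of 28 were below 0 at NF 45 with a median of -0.08, and 16 of 28 with a median of -0.01 without both NF 45 libraries numbered 2. Within pairs 7 of 8 were below 0, with a median of -0.05 beside -0.004 over all genes, and none had an unadjusted p under 0.05. For example, spry1.S was at 15.9, 18.1 and 14.3 CPM in NF 45 controls and at 12.2, 15.8 and 15.6 CPM after thioridazine. The value of etv4.L lay between 66.9 and 85.2 CPM over the 12 libraries, a 1.27-fold range, with 3 of 6 pairs higher. The copy spry1.L lay between 12.2 and 21 CPM, spry2.L between 11.9 and 16.8 CPM, spry2.S between 9.76 and 14.7 CPM and spry4.L between 8.62 and 16.6 CPM.

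Counting separations over the set, no copy had non-overlapping groups at NF 45, where 2.43% of all genes were higher and 1.56% lower without overlap. At NF 47, 8 copies were higher without overlap, which is 9.3% of the 86 against 3.81% of all genes. These were ihh.L, cdon.S, gas1.S, hhip.L, bmp2.S, smad1.L, msx2.S and fgf8.L. One copy, fgf13.S, was lower, against 3.55% of all genes. No test was made on this count, since copies are not independent of each other. Besides msx2.S, the highest control and lowest thioridazine library were close for hhip.L (17.2 and 17.4 CPM), smad1.L (47.4 and 47.6) and fgf8.L (8.02 and 8.14). They were farther apart for cdon.S, gas1.S and bmp2.S. For ihh.L the controls had 12, 12 and 9 reads and the thioridazine libraries 13, 19 and 15. By edgeR, 0 of the 86 copies had an unadjusted p under 0.05 at NF 47, beside 1.1% of all genes. Over both stages, 3 copies (msx2.S, msx2.L and smad1.L) were higher in all 6 pairs, against 3.11% of all genes, and 2 copies (fgf13.S and fgfr3.S) were lower in all 6, against 3.19%. As shares of the 86 these are 3.49% and 2.33%, close to the background. Without pair 2 of NF 45, 5 copies were higher in all 5 remaining pairs and 5 were lower, against 5.01% and 4.86% of all genes. At NF 45 without that pair, 16 copies were higher and 15 lower without overlap of 2 against 2 libraries, against 15% and 14.9% of all genes.

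The difference between the thioridazine effects at the 2 stages was tested directly, and edgeR called 0 of the 86 copies, against 0% of all genes. At an unadjusted p under 0.05 it had 0 copies, against 0.342% of all genes, and DESeq2, limma-voom and the fit within pairs called 0, each against 0%, 0% and 0% of all genes. The smallest unadjusted p belonged to fgfr2.L, whose difference of effects was 0.38 ± 0.187 (log2, SE; edgeR adjusted p = 1). It was at 63.4, 52.8 and 60.6 CPM in NF 45 controls and at 58.1, 44.0 and 55.4 CPM after thioridazine. At NF 47 it was at 47.9, 60.0 and 56.3 CPM in controls and at 63.1, 57.7 and 69.0 CPM after thioridazine. Its values were lower after thioridazine in all 3 pairs of NF 45 and higher in 2 of 3 pairs of NF 47. The copies fgfr2.S and boc.L had differences of 0.34 ± 0.225 and 0.34 ± 0.196, and shh.L one of -0.28 ± 0.228. The ligand copies ihh.L and bmp2.L had 1.37 ± 0.9 and -0.57 ± 0.43, and ihh.L had 0.63 without the control NF 45 library numbered 3. In that library, the one with high liver and gut markers, ihh.L was at 3.08 CPM, and it was at most 1.73 CPM in the others. The part of those markers was not tested. The intervals of the difference lay within 2-fold for 60 of the 86 copies (69.8%), beside 60.5% of all genes.

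Between NF 45 and NF 47 of untreated brains, no copy was called by edgeR, against 0% of all genes. At an unadjusted p under 0.05, 9 copies differed, 3 higher and 6 lower at NF 47, which is 10.5% of the 86 beside 11.2% of all genes. DESeq2 called 0 of the 60 copies to which it gave an adjusted p, against 2.57% of all genes, and limma-voom called 0 of 86, against 3.34%. With replicate numbers matched across the stages edgeR called 0, against 0.00753% of all genes. The smallest edgeR adjusted p was 0.304, for boc.L, a Hedgehog co-receptor gene. The 9 copies became 2 without the control NF 47 library numbered 3, 4 without the one numbered 1 and 5 without the control NF 45 library numbered 2.

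Hedgehog copies had lower values at NF 47 than at NF 45 in controls for 22 of 26, with a median of -0.24 beside -0.028 over all genes. Without both NF 45 libraries numbered 2, a count by direction added after the values were seen, this was 19 of 26 with a median of -0.15. The direction was not shared by other genes of the pathway, described at the end of these results. Of 42 further Hedgehog copies tested, 19 were above 0, with a median of -0.02, and 46.2% of all genes were above 0. For gli2.S the NF 45 controls were at 11.2, 13.8 and 9.62 CPM and the NF 47 controls at 8.60, 7.46 and 6.89 CPM, without overlap, a difference of -0.59 ± 0.202 (log2, SE; edgeR adjusted p = 0.324). The other copy gli2.L differed by -0.43 ± 0.167, with overlap. For boc.L the values were 16.4, 19.1 and 15.7 CPM at NF 45 and 13.6, 13.2 and 11.4 CPM at NF 47, and for smo.S, a copy of the gene for Smoothened, they were 4.85, 6.98 and 7.93 CPM against 4.06, 3.63 and 3.52 CPM. Both sets of 3 were separated, while boc.S and smo.L, the copies with more reads, overlapped between stages. Of the BMP copies, nog.L was higher in NF 47 controls by 0.41 ± 0.162, at 8.25, 8.23 and 8.47 CPM before and 11.1, 9.44 and 12.7 CPM after. The neuronal factor fgf13.L was at 95.9, 114 and 85.5 CPM in NF 45 controls and at 135, 111 and 128 CPM in NF 47 controls. Summed neuronal markers were higher at NF 47 as well, from 3250 to 4460 CPM at NF 45 and from 4510 to 4650 CPM at NF 47 in controls, with none of 16 rows at 0 and 14 of 16 above 0 in fold change. Most rows of some other lists were lower at NF 47 in controls, with 1 of 17 skin and epithelium rows, 2 of 21 muscle rows, 3 of 17 retina and pigment rows and 2 of 12 endothelium rows above 0. Their part in these stage differences was not tested.

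In thioridazine brains edgeR again called no copy between the stages, against 0% of all genes. At an unadjusted p under 0.05, 7 copies differed, all of them higher at NF 47, which is 8.14% of the 86 beside 9.63% of all genes. DESeq2 called 0 of 56 copies with an adjusted p, against 1.85% of all genes, limma-voom called 0 of 86, against 0.00376%, and edgeR with matched replicate numbers called 0, against 0.00376%. The 7 copies became 4 without the thioridazine NF 47 library numbered 1 or 3, and 12 without the one numbered 2. The smallest p was that of nog.L, which was at 8.34, 7.59 and 10.3 CPM at NF 45 and at 14.2, 12.5 and 13.2 CPM at NF 47, without overlap. The difference was 0.60 ± 0.161 (log2, SE), the edgeR adjusted p was 0.316 and the DESeq2 adjusted p was 0.0561. The copy nog.S was higher too, by 0.40 ± 0.182. Both fgf8 copies were separated, fgf8.L with 5.69, 7.19 and 6.62 CPM at NF 45 and 8.14, 9.04 and 10.8 CPM at NF 47, a difference of 0.52 ± 0.182, and fgf8.S with a difference of 0.62 ± 0.276. The copies bmp2.S, spry1.S and smad7.L differed by 0.58 ± 0.198, 0.34 ± 0.142 and 0.31 ± 0.137. Summed neuronal markers ran from 3540 to 4020 CPM at NF 45 and from 4170 to 4760 CPM at NF 47 in these brains.

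FGF copies were higher at NF 47 in thioridazine brains for 22 of 28, with a median of 0.16 beside -0.032 over all genes, and for 15 of 28 in controls, with a median of 0.04. Without both NF 45 libraries numbered 2 the counts were 21 and 22 of 28, with medians of 0.18 and 0.15. Hedgehog copies were lower at NF 47 in 19 of 26 in thioridazine brains, with a median of -0.16, which became 14 of 26 and -0.02 without those 2 libraries. Of the 42 further Hedgehog copies, 19 were above 0 in thioridazine brains, with a median of -0.01. Of 82 further FGF copies, 39 were above 0 in thioridazine brains and 39 in controls, with medians of -0.04 and -0.02. The stage comparisons in controls and in thioridazine brains share no library. Their fold changes had the same sign for 59 of the 86 copies, or 68.6%, and for 77.8% of all genes. Without overlap of groups, 4 copies were higher and 7 lower at NF 47 in controls, against 9.83% and 8.62% of all genes. In thioridazine brains 11 were higher and 4 lower, against 7.35% and 5.98%. The copies nog.L, bmp2.S and smad7.L were separated upwards, and sufu.L downwards, in both. The share of all genes separated in both was not computed, so these 4 copies have no background beside them.

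**Figure D3:**
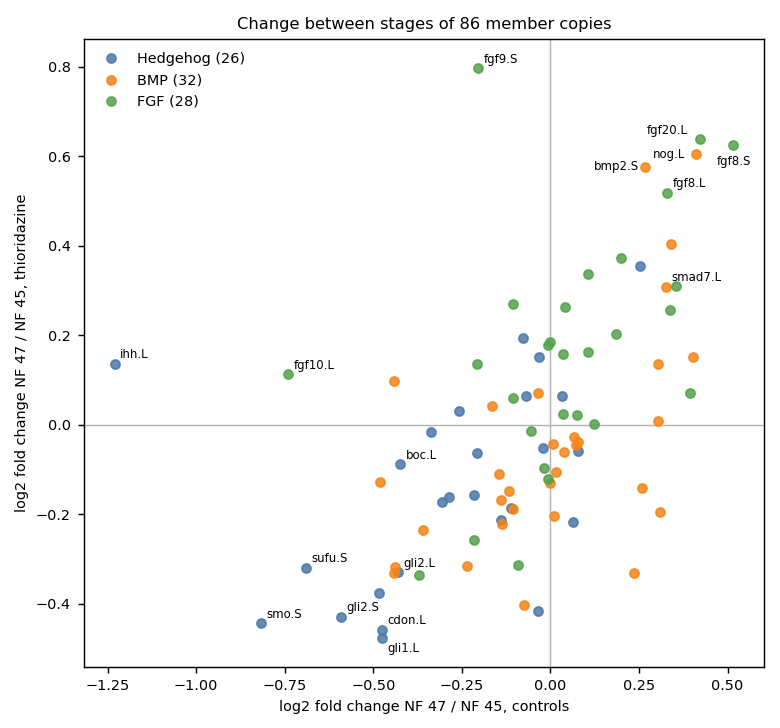
Log2 fold change of NF 47 over NF 45 in controls (x axis) and in thioridazine brains (y axis) for the 86 copies, coloured by pathway, with the farthest and some named copies labelled. Of the 86, 24 are above 0 in both and 35 below 0 in both; Hedgehog copies are below 0 for 22 of 26 in controls and 19 of 26 in thioridazine brains, and nog.L, fgf8.L, fgf8.S and bmp2.S at the upper right. No point was called in either comparison.

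Across the 12 libraries most copies varied by less than 2-fold, a ratio that was not computed over all genes. The ratio of the highest to the lowest library was under 2 for 55 of the 86 copies, from 2 to 4 for 26 and over 4 for 5, which were ihh.L, dhh.L, fgf9.S, grem1.L and fgf20.L. All 5 had 7 or fewer reads in at least 1 library. Within groups the median coefficient of variation of the copies was 15% in NF 45 controls, 14.2% in NF 45 thioridazine, 11% in NF 47 controls and 13.5% in NF 47 thioridazine libraries, beside 18.2%, 20.7%, 12.7% and 14.4% over all genes tested.

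The 2 NF 45 libraries numbered 2 were visible in copies of all 3 pathways, and the copies farthest from the rest of their groups in both were grem1.L and msx2.S, 2 BMP copies. The median Hedgehog copy was 0.31 and 0.21 above its own mean over the 12 libraries in the control and the thioridazine library, on the log2 scale, and 12 of the 26 copies had their highest value in one or the other. Of the same copies, 1 had its lowest value in the control library and 2 in the thioridazine library. These counts were not made over all genes. The same medians were -0.13 and -0.05 for BMP and 0.09 and -0.05 for FGF copies. By a difference of over 0.5 on the log2 scale from the other 2 libraries of the group, in both libraries, 5 copies were higher (sufu.S, gli1.L, ptch1.L, ptch1.S and bmpr1a.L) and 4 lower (msx2.S, bambi.L, grem1.L and fgf10.L). Those are 5.81% and 4.65% of the copies, beside 8.71% and 14.2% of all genes. For gli1.L the values were 3.68 and 4.85 CPM in the 2 libraries and at most 2.55 CPM in the others. In the control NF 47 library numbered 2 the 5 higher copies were at -0.12, 0.23, 0.24, 0.12 and 0.49 in the order given, none over 0.5. The 4 lower copies were at 0.04, 0.09, 0.99 and -0.56 in that control library. In the thioridazine NF 47 library numbered 2 the 5 copies were again higher, by 1.01, 0.53, 0.98, 0.7 and 0.74 in the order given. The 4 lower copies were there at 0.1, -0.07, 0.65 and -0.3. Summed skin, connective tissue and muscle markers of that thioridazine NF 47 library were at 821, 4070 and 1070 CPM. The limit of 0.5 was chosen after the values were seen, and the part of the marker differences given above in these values was not tested.

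**Figure D4:**
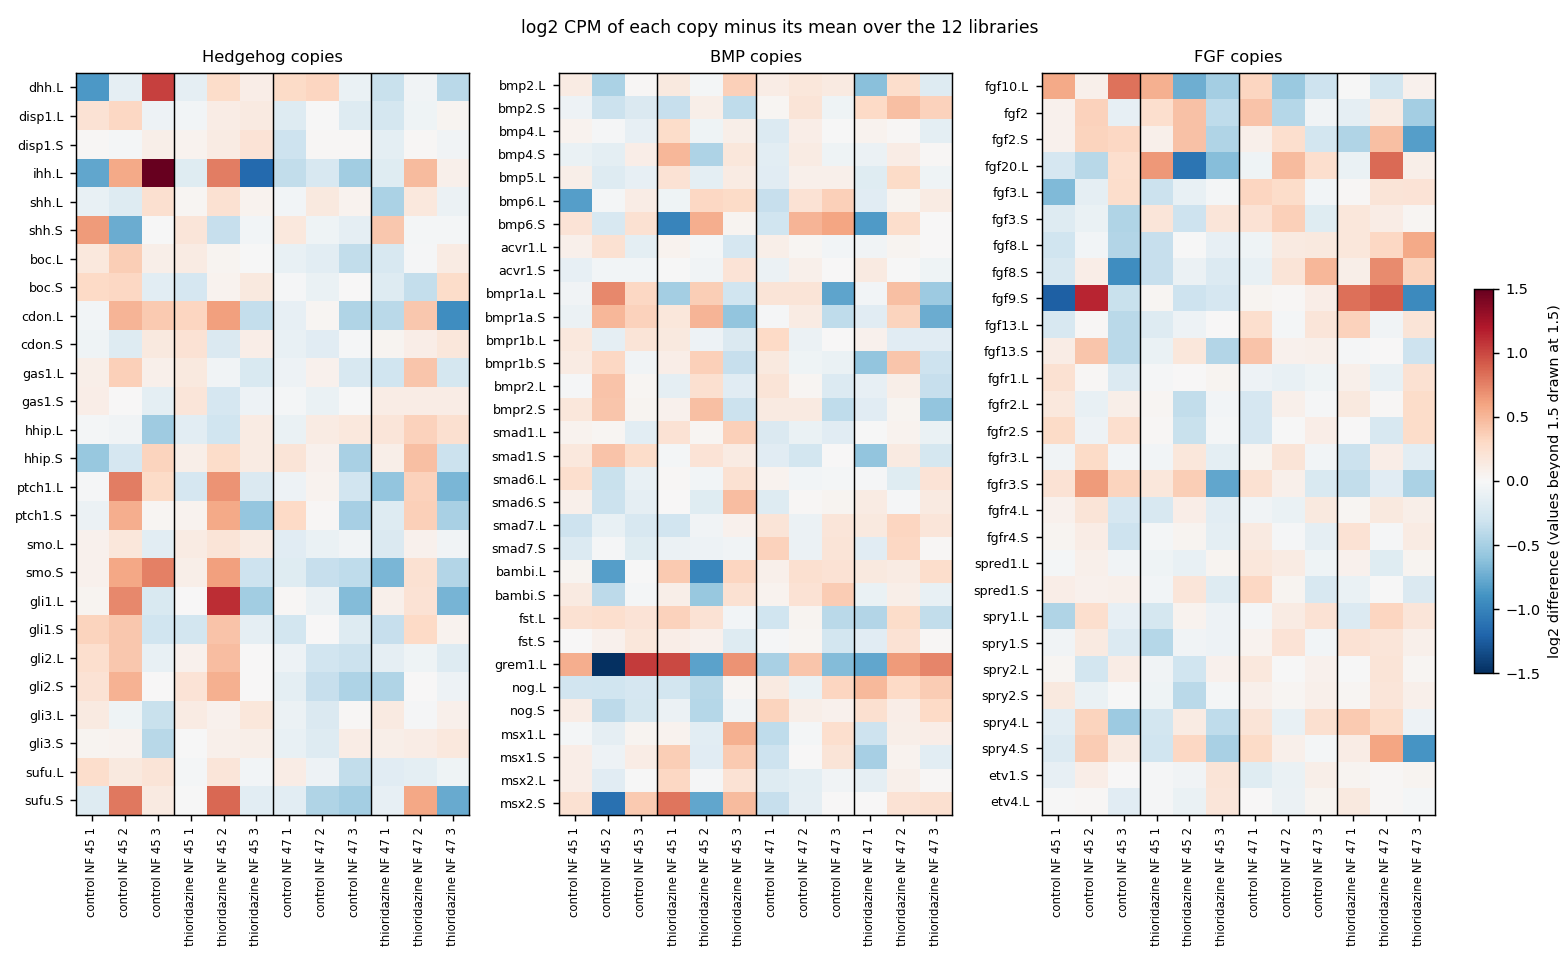
Log2 CPM of each of the 86 copies minus its mean over the 12 libraries, by copy (rows) and library (columns, grouped by black lines), with red above and blue below the mean. The NF 45 columns numbered 2 of both treatments are red for ptch1, gli1.L and sufu.S and blue for msx2.S, bambi.L and grem1.L.

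How the reads of a gene were divided between its 2 copies differed widely between genes. For 37 symbols with a .L and a .S copy tested, the share of reads from .L was above 75% for 10 and below 25% for 3, as the median of the 12 libraries. These shares are of reads and were not divided by transcript length, and reads that match both copies could have been divided between them during counting. The highest share was that of hhip, with 87.8% to 95.7% from .L, followed by smo with 84.5% to 93.7% and shh with 82.7% to 93%. At the other end boc had 10.3% to 16.1% and gli1 7.72% to 19.5% from .L. The share moved by under 10 percentage points over the 12 libraries for 17 of the 37 symbols. The share of cdon had a wide range, 30.2% to 62.6%, with group means of 54% ± 5.91 (SD, 3 libraries) in NF 45 controls and 47% ± 5.63 in NF 47 controls. It was 51.1% ± 11 in NF 45 thioridazine libraries and 41.5% ± 11.7 in those of NF 47, and no test was made on these shares. For bmp2 the mean share from .L was 31% ± 3.44 in NF 45 controls, 30.9% ± 1.74 in NF 47 controls, 35.7% ± 7.06 in NF 45 thioridazine and 22.2% ± 4.72 in NF 47 thioridazine libraries.

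**Figure D5:**
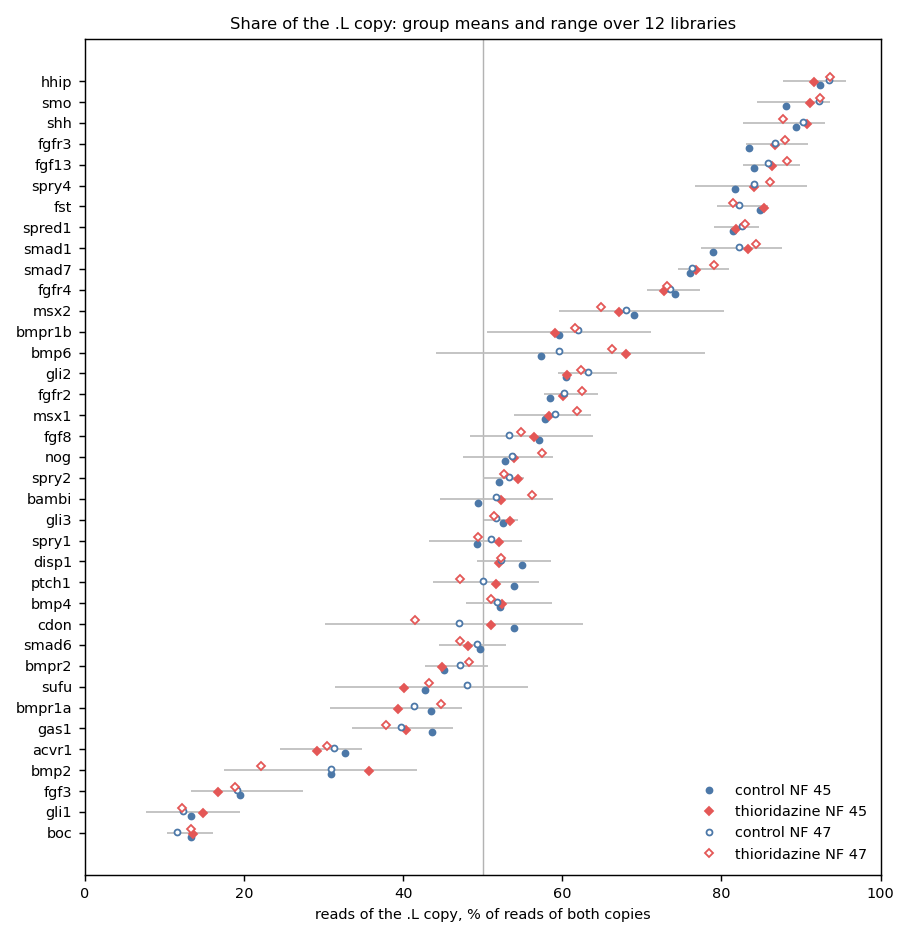
Share of reads from the .L copy in reads of both copies (x axis, percent) for 37 symbols, as group means of 3 libraries (points) and the range over all 12 libraries (grey lines). The symbols run from boc, with a median of 12.5%, to hhip, with 93.2%, and the 4 group means of a symbol mostly lie close together beside the distance between symbols.

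Whether both copies of a gene moved the same way differed by comparison. Within pairs, the thioridazine fold changes of both copies had the same sign for 18 of 38 genes, or 47.4%, beside 68.5% of 6896 genes with 2 copies tested. In the other 5 comparisons the share was 65.8% to 76.3%, beside 63.8% to 73.5% over all such genes. Among the 6 copies with an unadjusted p under 0.05 within pairs, msx2.S, msx2.L, gli3.L and fgfr3.S had a second copy with the same sign, and smad1.L and fgf13.S a second copy with the opposite sign.

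Other genes of the 3 pathways were read from lists that hold no member of the set. Of 42 further Hedgehog copies, 68 BMP copies and 82 FGF copies tested, edgeR called none in any of the 6 comparisons. In thioridazine over control, 30 of the 82 further FGF copies were above 0 at NF 45, with a median of -0.05. At NF 47, 23 of the 82 were above 0, with a median of -0.06. The FGF copies of the set went the other way there, with 18 of 28 above 0 and a median of 0.05. Within pairs, 25 of the 82 were above 0, with a median of -0.07, beside 11 of 28 and -0.02 in the set. Within pairs, at an unadjusted p under 0.05, 3 Hedgehog copies were higher and 3 lower after thioridazine, 4 BMP copies were higher and 3 lower, and 2 FGF copies were higher and 6 lower. Over all genes the share at this threshold was 9.19%, and the copies named here are given as values, with none called. Both copies of dlx5, a homeobox gene of the ventral forebrain that BMPs induce in other tissues, were among the higher ones, with dlx5.S at 0.39 ± 0.0885 (edgeR adjusted p = 0.191) and dlx5.L at 0.31 ± 0.0717 (0.194). The ventral progenitor factor nkx6-1.L was 0.34 ± 0.0833 higher (0.222), and lrp2.L, an endocytic receptor that takes up Hedgehog protein, 0.44 ± 0.13 higher (0.342). Both copies of rgmb, a BMP co-receptor gene, and both copies of prkaca, which encodes the kinase that primes Gli proteins for processing, were among the lower ones, at -0.26 ± 0.0804 for rgmb.L and -0.19 ± 0.0718 for prkaca.L (0.367 and 0.474). Between stages, fos.L and fos.S, early response genes downstream of FGF receptors and of neuronal activity, were higher at NF 47 by 0.84 ± 0.265 and 0.84 ± 0.256 in controls and by 0.95 ± 0.268 and 0.89 ± 0.256 in thioridazine brains, with edgeR adjusted p between 0.278 and 0.327.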

How the data were processed

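RNA-seq read counts per gene were deposited for 12 whole-brain libraries, 3 in each of 4 groups. Per the labels' protocols, libraries were made with the Illumina TruSeq v2 kit and read as single ends. Per the submitters' processing notes, the authors used Trimmomatic, HISAT2, HTSeq and DESeq2 to process reads and make the counts; versions, genome build, annotation, strand setting and treatment of reads that match both copies are not given in the sources used here. Counts entered the fits as deposited, without change. Replicates of a group differed by 6.91 to 52.8 chi-square units per gene, so each library was counted once. Gene identifiers were named from the RefSeq table of Xenopus laevis, and no sequence or coordinate was used.

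The 26570 genes that passed edgeR's filterByExpr were fitted together with edgeR 4.0.16 (R 4.3.3), using TMM scaling, a robust quasi-likelihood fit and Benjamini-Hochberg adjustment over all genes; a call is an adjusted p under 0.05. SE is the absolute log2 fold change over the square root of F. Stage and treatment comparisons used all 12 libraries without a block, and the comparison over both stages blocked on replicate number inside each stage. Deviations of same-numbered control and thioridazine libraries correlated at 0.575, 0.845 and 0.449 at NF 45 and 0.291, 0.318 and 0.54 at NF 47, so the numbers were taken as pairs within stages. The labels give replicate numbers and state no pairing. Correlations of control and thioridazine libraries with unequal numbers are not given, so these values cannot show that equal numbers pair the libraries. At NF 45 both libraries numbered 2 stood apart together, so its 3 correlations are not separate evidence of pairing. On the first 2 principal components control 3 of NF 45 (-56.16, -67.18) lay nearer thioridazine 1 (-50.4, -30.95) than thioridazine 3 (-38.12, -15.59). Across stages not every correlation was above 0.1. DESeq2 1.42.0 and limma 3.58.1 (voom with quality weights) were alternatives, as were other scaling, no filter, summed copies and left-out libraries. The fits were also run on simulated counts, drawn independently for each library and without pair effects. Those runs do not show how the fits behave with paired or deviating libraries. Per comparison, the text names the 6 copies with the smallest unadjusted p, as fewer than 6 were called, and gives levels for a set list of pathway genes; other copies are named for their group or for non-overlap. The members and lists were chosen with earlier results of these data known.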

Additional observations from a re-analysis of the deposited data

How the results depend on the processing

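No copy was called in any of the 6 comparisons under any of the 100 combinations of comparison and alternative setting. Over all genes these combinations called from 0 to 888 genes. The largest number, 3.34% of all genes, was between stages in controls with limma-voom. Where a setting called no gene at all, as with DESeq2 size factors at NF 45, no copy could be called. The smallest adjusted p over the alternatives was 0.628 for thioridazine at NF 45, 0.715 at NF 47, 0.0582 between stages in controls, 0.0561 between stages in thioridazine brains, 1 for the difference of effects and 0.0602 over both stages within pairs. For the 6 copies with the smallest p in each comparison, none of 564 recomputed fold changes changed direction. These copies were picked for a small p in the same data, and the settings share most libraries, so this is not a separate check. Other named copies were not all followed, and spry1.L and fgfr4.S turned from below 0 to 0.0046 at NF 45 with the replicate block. With the replicate block, edgeR called 0 copies at NF 45, at NF 47, for the difference of effects and between stages, and without the block it called 0 over both stages. Among the recomputed pathway medians, 11 moved and 271 did not move by more than the spread between libraries. That spread was larger than some of the medians, as for Hedgehog within pairs, with 0.125 beside a median of 0.03. A median could therefore change sign and still count as not moved, so the 271 do not show that the medians are stable. The BMP median at NF 45 was 0.096, and -0.005 without the control NF 45 library numbered 2. The cause was not tested. Counts at an unadjusted p under 0.05 moved by over 1.5 times in 40 of 100 cases: at NF 45 from 1 to 6 without the thioridazine library numbered 2, within pairs from 6 to 2 with no block, and with the block from 1 to 3 at NF 45, from 0 to 2 at NF 47 and for the difference of effects, from 9 to 14 between stages in controls and from 7 to 12 in thioridazine brains. With limma-voom the counts were 2 at NF 45, 7 at NF 47, 3 for the difference of effects, 20 and 14 between stages in controls and thioridazine brains, and 8 within pairs. The share of all genes at this threshold was computed only for the main edgeR fits. Counts under other settings, here and above, therefore have no background beside them and are not read as changes of these pathways. Across stages the numbers were not shown to pair the libraries. Genes with few reads, such as ihh.L and dhh.L, have wide intervals at this depth.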
